A study of Danio rerio with 18 samples.

Results

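The genes described here are the RefSeq-annotated zebrafish genes whose signal was at least 4 times as high in control embryos at 48 hours post fertilization (hpf) as in control embryos at 24 hpf. They were chosen from the control arrays: a feature with a RefSeq mRNA identifier was a member where its mean log2 intensity over 3 control arrays at 48 hpf exceeded that over 3 control arrays at 24 hpf by 2 or more. Of 3051 such features 146 met that threshold, and 25 of these were left out by symbol, among them solute carriers, gamma M2 crystallins and several muscle, cartilage and photoreceptor genes. This left 121 members of the 37105 features on the array. A rise of 2 or more in controls was seen in 3.78% of all features and 4.79% of RefSeq features. Because control arrays chose the members, the control rise of a member is a description and carries no test. Embryos exposed to gold nanoparticles took no part in the choice, so the change over the same day was measured and tested in them.

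RNA came from pools of 40 whole zebrafish embryos, with 3 pools in each of 6 groups and 1 single-colour NimbleGen array per pool. Chorions were removed at 4 hpf, and from 6 hpf the embryos were kept in vehicle, in 50 µg/mL of MES gold particles or in 10 µg/mL of TMAT gold particles until collection at 24 or 48 hpf. Both particles are of 1.5 nm by the labels. MES is mercaptoethanesulfonate, an anionic surface ligand, and TMAT is trimethylammoniumethanethiol, a cationic one. Ligand and dose differ together between the particles, so neither can be told apart from the other. No strain is named in the labels, an exposure temperature of 37 °C is given for every group, and nothing says whether pools came from separate clutches. In RNA from whole embryos, more cells of a type and more RNA per cell cannot be told apart.

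Between 24 and 48 hpf a zebrafish embryo passes from the end of somite formation to the time of hatching. Neurons extend axons and begin to form synapses, the retina starts to differentiate, lens fibres fill with crystallins and the larval organs begin to work. Synapses need a presynaptic release machinery, postsynaptic receptors and adhesion proteins that hold both sides together. Axons are steered by secreted guidance cues read by receptors on the growth cone.

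The median intensity of an array was 1809 to 2028 in controls at 24 hpf and 2076 to 2197 in controls at 48 hpf, and 1925 to 2071 in exposed arrays of both ages. With every array centred on its median, 95 of the 121 members still met the threshold. Random probes, which measure background, gave 82.8 to 169 in the 6 control arrays and 78.8 to 96.4 in the 12 exposed arrays. Each member was summarised from 4 to 12 probes. Markers of cell types were looked up by current symbol, which 2659 of the 37105 features had, so others may be on the array unnamed. Of 30 markers chosen to check the label of the tissue, 3 were found, the lens genes mipa and crybb1 and the photoreceptor gene saga. All of these had a log2 intensity above 7.40, the highest value of the random probes, in every array. Over all features, the median SD over 3 arrays was 0.48 and 0.42 in controls at 24 and 48 hpf, against 0.25 and 0.21 in MES arrays and 0.33 and 0.25 in TMAT arrays.

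Most members also rose in exposed embryos. In MES arrays 93 of 121 were higher at 48 than at 24 hpf, where 21.2% of all features and 19.4% of RefSeq features were (limma, Benjamini-Hochberg adjusted over 37105 features, threshold 0.05). In TMAT arrays 94 of 121 were higher, where 11.3% of all features and 15.2% of RefSeq features were. Both exposures called 92 members, against 9.76% of all features and 13.7% of RefSeq features. MES arrays alone called 1, TMAT arrays alone called 2, and 26 were called in neither. None was called lower in either exposure, where 20.5% of all features were lower in MES and 13.2% in TMAT arrays. The median rise of the members was 1.71 in MES and 1.90 in TMAT arrays, and the median over all features was −0.04 and −0.03. A rise of at least 2 was measured for 47 members in MES arrays, against 2.11% of all features, for 56 in TMAT arrays, against 1.82%, and for 44 in both, against 1.35%. The 48 hpf values lay wholly above the 24 hpf values for 104 members in MES arrays, against 26.4% of all features, and for 101 in TMAT arrays, against 16.1%. In controls they did so for all 121, against 16.7% of all features, which follows from the way members were chosen.

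**Figure D1:**
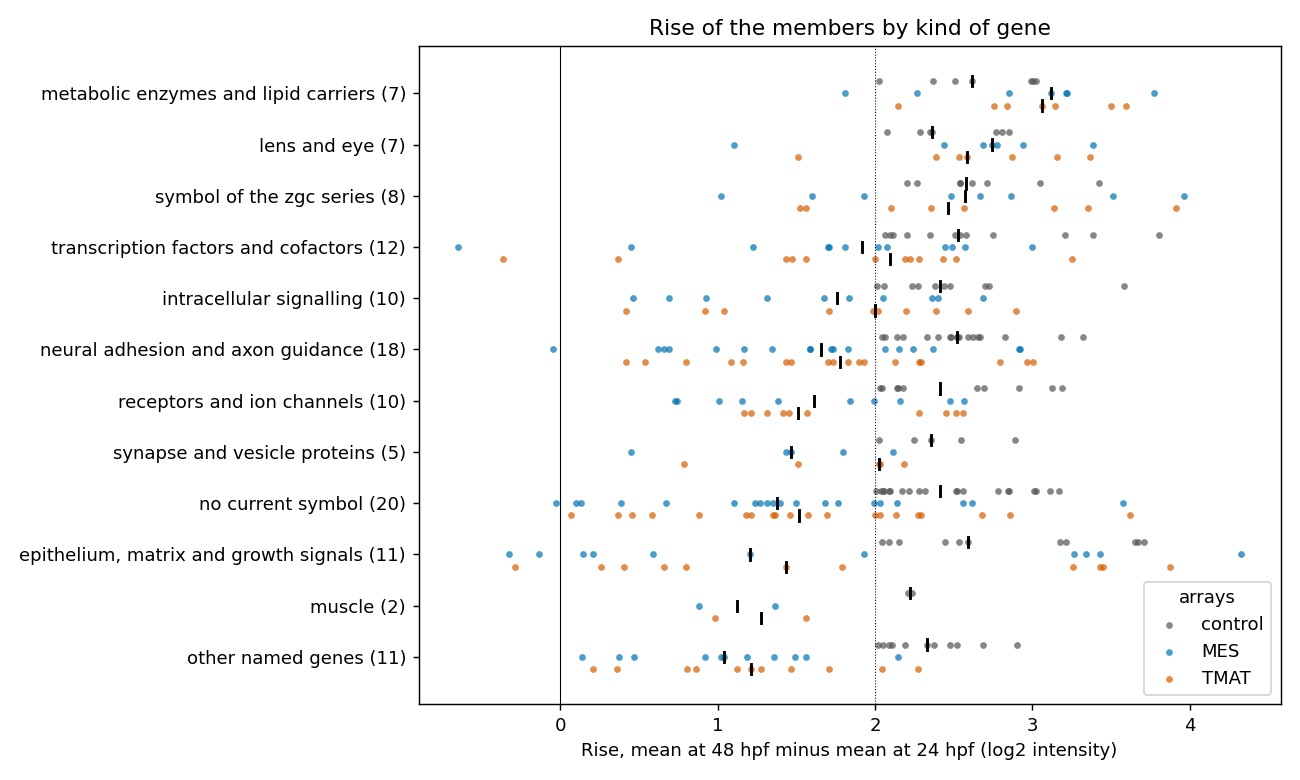
Rise from 24 to 48 hpf on the log2 scale (horizontal axis) of the 121 members, sorted by kind of gene with the number of members in brackets. Each point is 1 member's difference of group means in control (grey), MES (blue) or TMAT arrays (orange), black bars are medians, the dotted line is the threshold of 2 that control values had to pass, and the metabolic and lens genes have exposed medians between 2.58 and 3.12.

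The size of the rise was close between the particles. Across the 121 members the Pearson correlation between the MES and TMAT rise was 0.969, and across all 37105 features it was 0.907. Members are not independent replicates, and probe content and the normalization are shared, so this is a description. The MES rise was below the control rise for 103 members and the TMAT rise for 97. The members had been chosen for a high value in the control arrays, so a lower value in other arrays follows in part from the choice, and the difference was not tested.

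**Figure D2:**
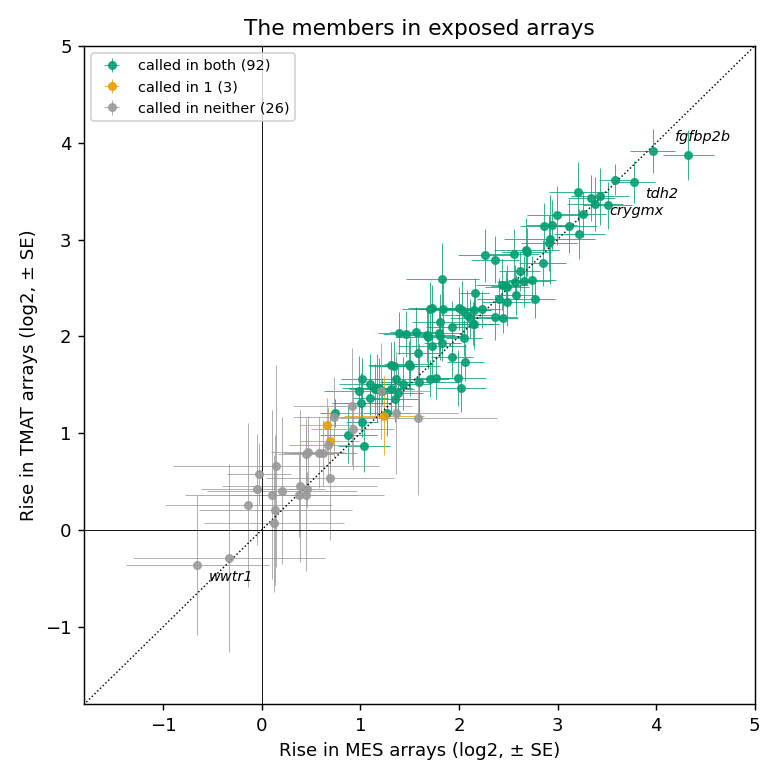
Rise of each member in MES arrays (horizontal axis) against TMAT arrays (vertical axis), both as log2 differences of means with limma's standard error, with the line of equality dotted. The 92 members called in both (green) lie near the line, and the 26 called in neither (grey) have rises between −0.65 and 1.59 with wide error bars.

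The members were sorted by hand into kinds of gene after their values had been seen, so the groups serve to describe them. Beside every count of calls below, 21.2% of all features were called higher in MES and 11.3% in TMAT arrays. A rule named 58 of the members, and those named beyond it, such as cnih2, drd3, mag, opn6a and tdh2, were picked after their values had been seen. Ion channels and neurotransmitter receptors made up 10 members, of which 9 rose in MES and 9 in TMAT arrays, with median rises of 1.61 and 1.51. gria4b and gria1a encode subunits of the AMPA receptor, the main fast receptor for glutamate. gria4b had log2 intensities of 8.48, 10.40 and 10.23 in control arrays at 24 hpf and 13.08, 12.34 and 12.43 at 48 hpf. For gria4b, MES arrays gave 10.44, 10.16 and 10.09 and then 12.10, 11.96 and 12.15, and TMAT arrays 10.35, 9.12 and 10.34 and then 12.22, 12.54 and 11.89. The lowest of the controls was array 1 at 24 hpf and the lowest TMAT value was array 2 at 24 hpf, and no group overlapped with its later age. gria4b rose by 1.84 ± 0.30 in MES (adjusted p = 0.000819) and 2.28 ± 0.30 in TMAT arrays (adjusted p = 0.000221). gria1a had log2 intensities of 8.59, 9.82 and 9.80 in control arrays at 24 hpf and 12.59, 12.22 and 11.49 at 48 hpf. For gria1a, MES arrays gave 10.39, 9.87 and 9.68 and then 11.12, 10.85 and 11.43, and TMAT arrays 9.96, 9.44 and 10.12 and then 11.29, 11.65 and 10.94. Ages were separate within every agent, with the widest gap in controls. gria1a rose by 1.15 ± 0.26 in MES (adjusted p = 0.00527) and 1.45 ± 0.26 in TMAT arrays (adjusted p = 0.00181). Gene families were counted only among the 2659 features with a current symbol, so other genes of a family may be on the array unnamed. These features held 5 AMPA receptor subunits, gria1b, gria3b and gria4a among them. All 5 rose in both exposures, by 0.88 to 1.84 in MES and by 1.29 to 2.28 in TMAT arrays.

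cnih2 encodes a cornichon protein, an auxiliary subunit that alters AMPA receptor trafficking and gating. cnih2 had log2 intensities of 9.86, 9.97 and 10.20 in control arrays at 24 hpf and 12.46, 11.57 and 12.45 at 48 hpf. For cnih2, MES arrays gave 9.68, 9.86 and 10.23 and then 12.47, 12.32 and 12.67, and TMAT arrays 9.86, 10.08 and 9.79 and then 12.40, 12.46 and 12.55. The exposed arrays at 48 hpf lay within or just above the range of the controls, whose array 2 was the lowest at that age. cnih2 rose by 2.57 ± 0.18 in MES (adjusted p = 2.2e-06) and 2.56 ± 0.18 in TMAT arrays (adjusted p = 2.18e-06). scn4ba encodes a beta subunit of voltage-gated sodium channels. scn4ba had log2 intensities of 10.30, 10.19 and 9.95 in control arrays at 24 hpf and 12.78, 12.86 and 12.73 at 48 hpf. For scn4ba, MES arrays gave 9.95, 10.08 and 10.28 and then 12.45, 12.65 and 12.65, and TMAT arrays 10.13, 10.08 and 9.99 and then 12.56, 12.72 and 12.46. Every group held to a narrow range, and no 48 hpf array came near a 24 hpf array. scn4ba rose by 2.47 ± 0.15 in MES (adjusted p = 9.33e-07) and 2.52 ± 0.15 in TMAT arrays (adjusted p = 8.47e-07). adcyap1r1a encodes a receptor for the neuropeptide PACAP. adcyap1r1a had log2 intensities of 8.45, 8.89 and 8.55 in control arrays at 24 hpf and 11.96, 12.16 and 11.16 at 48 hpf. For adcyap1r1a, MES arrays gave 8.60, 9.01 and 8.25 and then 9.51, 9.13 and 10.25, and TMAT arrays 8.81, 8.18 and 8.97 and then 10.08, 10.00 and 9.83. The difference between ages was largest in controls, and the exposed 48 hpf arrays were below the control ones. adcyap1r1a rose by 1.01 ± 0.30 in MES (adjusted p = 0.0198) and 1.31 ± 0.30 in TMAT arrays (adjusted p = 0.00782). drd3, a dopamine receptor, rose by 1.99 ± 0.29 in MES and 1.57 ± 0.29 in TMAT arrays. Of the 5 dopamine receptors with a symbol, 4 rose in MES and 3 in TMAT arrays. The calcium channel subunit gene cacna2d2b rose by 1.38 ± 0.26 and 1.41 ± 0.26. The gene of another calcium channel subunit, cacnb4b, was not called, at 0.73 ± 0.41 in MES (adjusted p = 0.177) and 1.17 ± 0.41 in TMAT arrays (adjusted p = 0.0609).

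**Figure D3:**
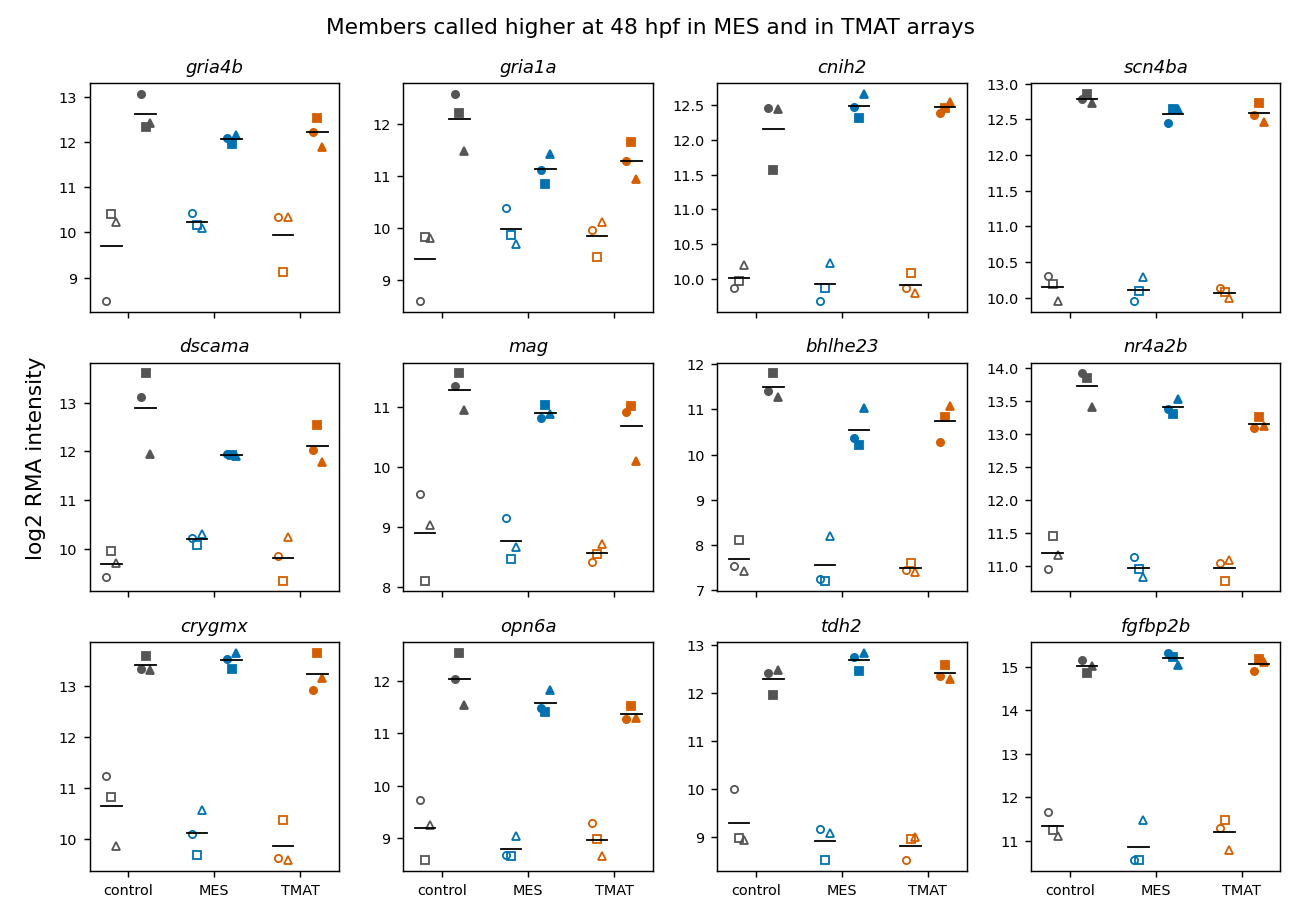
Log2 RMA intensity (vertical axis, its own range in each panel) of 12 members called higher at 48 hpf in both exposures, in each of the 18 arrays. Open symbols are 24 hpf and filled symbols 48 hpf, circles, squares and triangles are arrays 1, 2 and 3, and bars are group means; the filled symbols lie above the open ones of the same agent in every panel.

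Synapse and vesicle proteins made up 5 members, and 4 rose in both exposures. erc1a encodes a scaffold of the active zone, where vesicles fuse. erc1a had log2 intensities of 7.42, 7.65 and 7.25 in control arrays at 24 hpf and 10.24, 10.94 and 9.82 at 48 hpf. For erc1a, MES arrays gave 7.95, 7.54 and 7.98 and then 9.53, 8.94 and 9.41, and TMAT arrays 7.65, 7.27 and 7.90 and then 9.52, 9.97 and 9.39. All 24 hpf arrays read below 8, near the background, and ages did not overlap in any agent. erc1a rose by 1.47 ± 0.24 in MES (adjusted p = 0.000738) and 2.02 ± 0.24 in TMAT arrays (adjusted p = 9.93e-05). nrxn2b encodes a neurexin, a presynaptic adhesion protein. nrxn2b had log2 intensities of 7.89, 9.09 and 8.75 in control arrays at 24 hpf and 11.16, 11.47 and 10.72 at 48 hpf. For nrxn2b, MES arrays gave 9.34, 8.74 and 9.18 and then 10.52, 10.19 and 10.85, and TMAT arrays 8.92, 8.82 and 8.98 and then 10.40, 10.97 and 9.88. The control arrays had the widest gap between ages. nrxn2b rose by 1.43 ± 0.27 in MES (adjusted p = 0.00194) and 1.51 ± 0.27 in TMAT arrays (adjusted p = 0.00175). cbln2b, a secreted synapse organiser, and septin5b, a septin bound to vesicles, also rose, cbln2b by 1.80 ± 0.23 and 2.03 ± 0.23, and septin5b by 2.11 ± 0.20 and 2.19 ± 0.20 in MES and TMAT arrays. napbb encodes a form of SNAP, which takes SNARE complexes apart after fusion. It was not called, at 0.45 ± 0.29 in MES (adjusted p = 0.229) and 0.79 ± 0.29 in TMAT arrays (adjusted p = 0.0671). For the related napgb, just outside the threshold with a control rise of 1.98, the rise was 1.36 ± 0.19 and 1.22 ± 0.19, and it was called in both.

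Neural adhesion and axon guidance was the largest kind, with 18 members. Of these 13 rose in MES and 14 in TMAT arrays, with medians of 1.66 and 1.78. crmp1 encodes a collapsin response mediator, which acts on the cytoskeleton of the growth cone downstream of semaphorins. crmp1 had log2 intensities of 10.34, 10.88 and 11.73 in control arrays at 24 hpf and 14.47, 14.23 and 14.22 at 48 hpf. For crmp1, MES arrays gave 11.85, 11.73 and 10.02 and then 13.93, 14.25 and 14.16, and TMAT arrays 11.77, 10.35 and 11.70 and then 14.20, 14.44 and 14.18. TMAT array 2 and MES array 3 were the lowest of their 24 hpf groups, and all 48 hpf values lay above all 24 hpf values of the same agent. crmp1 rose by 2.92 ± 0.46 in MES (adjusted p = 0.000661) and 3.00 ± 0.46 in TMAT arrays (adjusted p = 0.000629). dscama encodes a homophilic adhesion molecule of the immunoglobulin superfamily that patterns neurites. dscama had log2 intensities of 9.44, 9.96 and 9.71 in control arrays at 24 hpf and 13.11, 13.60 and 11.95 at 48 hpf. For dscama, MES arrays gave 10.23, 10.09 and 10.31 and then 11.94, 11.93 and 11.92, and TMAT arrays 9.87, 9.36 and 10.25 and then 12.02, 12.53 and 11.78. Controls spread most at 48 hpf, with array 3 at the level of the exposed arrays. dscama rose by 1.72 ± 0.24 in MES (adjusted p = 0.000283) and 2.29 ± 0.24 in TMAT arrays (adjusted p = 4.41e-05). mag encodes myelin-associated glycoprotein, found on the membranes of myelinating glia. mag had log2 intensities of 9.55, 8.10 and 9.03 in control arrays at 24 hpf and 11.35, 11.57 and 10.96 at 48 hpf. For mag, MES arrays gave 9.16, 8.46 and 8.67 and then 10.82, 11.03 and 10.89, and TMAT arrays 8.41, 8.55 and 8.71 and then 10.93, 11.03 and 10.10. Ages were apart in every agent. mag rose by 2.15 ± 0.25 in MES (adjusted p = 9.6e-05) and 2.13 ± 0.25 in TMAT arrays (adjusted p = 0.000112). The immunoglobulin-domain genes iglon5, ntm and cntn4 rose by 2.24 ± 0.19, 2.07 ± 0.19 and 1.73 ± 0.34 in MES arrays. Their TMAT rises were 2.28 ± 0.19, 1.73 ± 0.19 and 1.90 ± 0.34. olfm2a, a secreted olfactomedin, rose by 2.91 ± 0.29 and 2.97 ± 0.29, more than its control value of 2.53. hepacama, a glial adhesion gene, rose by 2.37 ± 0.24 and 2.79 ± 0.24, and gfra1a, the co-receptor for GDNF, by 1.83 ± 0.19 and 1.93 ± 0.19.

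Receptor-type tyrosine phosphatases, which sit on axons and other membranes, were mostly not called in exposed embryos. Of ptprdb, ptprma and ptprub, ptprdb rose in TMAT arrays by 1.09 ± 0.27 (adjusted p = 0.0126) and was 0.66 ± 0.27 in MES arrays (adjusted p = 0.0715). ptprub was at 0.62 ± 0.34 and 0.80 ± 0.34 and ptprma at 0.69 ± 0.64 and 0.54 ± 0.64, and neither was called in either exposure. The guidance genes slit1b, a repellent ligand, and plxna3, a semaphorin receptor, were not called either, and their control rises were 2.52 and 2.14. For slit1b the difference was 1.59 ± 0.80 in MES arrays, where the ages did not overlap, and 1.16 ± 0.80 in TMAT arrays, where they did. For plxna3 it was nearer 0, at −0.04 ± 0.57 and 0.42 ± 0.57. Their relatives with a symbol were not members. slit1a, with a control rise of 1.30, was called lower in MES arrays at −1.25 ± 0.46 (adjusted p = 0.0463). It was not called in TMAT arrays at −0.97 ± 0.46 (adjusted p = 0.151). plxnd1 was at −0.20 ± 0.20 and −0.37 ± 0.20 and was not called. Clustered protocadherins, which give neurons a surface identity, had 28 features with a symbol. These are close in sequence, so signal may be shared between them. The members pcdh2aa15 and pcdh2ab12 rose in both exposures, by 1.59 ± 0.22 and 0.99 ± 0.36 in MES and 1.83 ± 0.22 and 1.43 ± 0.36 in TMAT arrays. Of all 28, 15 rose in MES and 8 in TMAT arrays, beside 21.2% and 11.3% of all features. None was called lower, where 20.5% and 13.2% of all features were.

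Intracellular signalling genes numbered 10, of which 7 rose in MES and 8 in TMAT arrays. cdk5r1b encodes p35, the activator of the neuronal kinase Cdk5. cdk5r1b had log2 intensities of 8.25, 10.09 and 9.88 in control arrays at 24 hpf and 13.39, 12.86 and 12.71 at 48 hpf. For cdk5r1b, MES arrays gave 10.33, 10.37 and 9.53 and then 12.53, 12.64 and 13.11, and TMAT arrays 10.07, 9.11 and 10.36 and then 12.78, 12.91 and 12.52. The 48 hpf arrays lay above the 24 hpf arrays in every agent. cdk5r1b rose by 2.69 ± 0.33 in MES (adjusted p = 0.000119) and 2.89 ± 0.33 in TMAT arrays (adjusted p = 7.62e-05). mapk10, a neuronal Jun kinase, rose by 1.68 ± 0.29 in MES and 2.02 ± 0.29 in TMAT arrays. dab1a and dab1b encode the adaptor that carries the reelin signal, which positions migrating neurons. dab1a rose by 2.4 ± 0.22 and 2.38 ± 0.22. dab1b rose in TMAT arrays by 0.92 ± 0.30 (adjusted p = 0.0453) and missed the threshold in MES arrays at 0.69 ± 0.30 (adjusted p = 0.0868). The regulatory subunits of protein phosphatase 2A, ppp2r2bb and ppp2r2ca, rose by 1.31 ± 0.23 and 2.36 ± 0.23 in MES and by 1.71 ± 0.23 and 2.20 ± 0.23 in TMAT arrays. map3k12, a kinase of the axon injury response, was at 0.46 ± 0.18 and 0.42 ± 0.18 and was not called. Its control rise of 2.05 stayed above the threshold in 2 of the 6 cases when a single control array was left out.

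Transcription factors and cofactors made up 12 members, and 10 rose in both exposures, with median rises of 1.92 in MES and 2.09 in TMAT arrays. bhlhe23, a basic helix-loop-helix factor of retinal and brain neurons in mouse, had the largest control rise of all members. bhlhe23 had log2 intensities of 7.54, 8.10 and 7.42 in control arrays at 24 hpf and 11.40, 11.80 and 11.28 at 48 hpf. For bhlhe23, MES arrays gave 7.24, 7.20 and 8.19 and then 10.37, 10.22 and 11.04, and TMAT arrays 7.45, 7.60 and 7.39 and then 10.28, 10.84 and 11.07. At 24 hpf 5 of the 9 arrays read below 7.5, close to 7.40, the highest random-probe value of any array. No 48 hpf array was below 10. bhlhe23 rose by 3.00 ± 0.31 in MES (adjusted p = 3.67e-05) and 3.25 ± 0.31 in TMAT arrays (adjusted p = 2.15e-05). A signal near background can compress a fold on this scale, which was not tested for bhlhe23. znf385b encodes a zinc finger protein. znf385b had log2 intensities of 7.97, 10.21 and 9.63 in control arrays at 24 hpf and 13.07, 13.04 and 11.85 at 48 hpf. For znf385b, MES arrays gave 10.28, 9.86 and 9.82 and then 11.78, 11.51 and 12.09, and TMAT arrays 9.60, 9.60 and 10.27 and then 11.76, 12.11 and 11.60. Array 1 of the controls at 24 hpf was the lowest of its group. znf385b rose by 1.81 ± 0.24 in MES (adjusted p = 0.000224) and 2.00 ± 0.24 in TMAT arrays (adjusted p = 0.000122). nr4a2b encodes Nurr1, an orphan nuclear receptor needed by dopamine neurons in mouse. nr4a2b had log2 intensities of 10.95, 11.45 and 11.16 in control arrays at 24 hpf and 13.92, 13.84 and 13.41 at 48 hpf. For nr4a2b, MES arrays gave 11.13, 10.94 and 10.82 and then 13.38, 13.31 and 13.53, and TMAT arrays 11.04, 10.77 and 11.09 and then 13.09, 13.25 and 13.12. Each group held to a narrow range, and the 24 hpf and 48 hpf values were far apart. nr4a2b rose by 2.44 ± 0.16 in MES (adjusted p = 1.23e-06) and 2.19 ± 0.16 in TMAT arrays (adjusted p = 2.64e-06). pou4f3, a factor of hair cells and retinal ganglion cells, rose by 2.02 ± 0.25 and 1.47 ± 0.25, and its relative pou4f4 by 1.80 ± 0.23 and 1.72 ± 0.23. pbx3b, a homeodomain cofactor of Hox proteins, rose by 2.57 ± 0.20 and 2.43 ± 0.20, and the nuclear receptor gene rorb by 2.49 ± 0.22 and 2.51 ± 0.22. zbtb20, a zinc finger repressor, rose by 1.70 ± 0.28 in MES and 2.28 ± 0.28 in TMAT arrays. mafga, a small Maf partner of other basic leucine zipper factors, rose by 1.22 ± 0.14 and 1.43 ± 0.14. The cofactors bcl9, of the Wnt pathway, and wwtr1, of the Hippo pathway, were not called. bcl9 had rises of 0.45 ± 0.79 in MES (adjusted p = 0.677) and 0.36 ± 0.79 in TMAT arrays (adjusted p = 0.778).

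Lens and eye genes were 7, and all 7 rose in both exposures. Their median rise was 2.74 in MES and 2.58 in TMAT arrays, beside 2.36 in controls. crygmx and cryba2b encode crystallins, the structural proteins that make the lens clear and refractive. crygmx had log2 intensities of 11.24, 10.82 and 9.86 in control arrays at 24 hpf and 13.33, 13.59 and 13.31 at 48 hpf. For crygmx, MES arrays gave 10.09, 9.69 and 10.57 and then 13.52, 13.33 and 13.64, and TMAT arrays 9.63, 10.38 and 9.58 and then 12.91, 13.64 and 13.15. Control array 1 at 24 hpf was above the exposed arrays of that age, and the 48 hpf arrays of all agents lay together. crygmx rose by 3.38 ± 0.28 in MES (adjusted p = 9.1e-06) and 3.37 ± 0.28 in TMAT arrays (adjusted p = 9.09e-06). cryba2b had log2 intensities of 13.19, 12.27 and 12.15 in control arrays at 24 hpf and 14.98, 14.53 and 15.18 at 48 hpf. For cryba2b, MES arrays gave 12.14, 12 and 12.72 and then 15.58, 15.13 and 14.96, and TMAT arrays 11.64, 12.44 and 11.85 and then 15.01, 15.31 and 15.08. Ages were separate in every agent, and control array 1 was the highest at 24 hpf. cryba2b rose by 2.94 ± 0.26 in MES (adjusted p = 1.26e-05) and 3.16 ± 0.26 in TMAT arrays (adjusted p = 7.83e-06). The crystallins crybgx and cryba1l1 rose by 2.74 ± 0.24 and 2.69 ± 0.25 in MES and by 2.58 ± 0.24 and 2.87 ± 0.25 in TMAT arrays. lim2.3, a membrane protein of lens fibres, rose by 2.44 ± 0.26 and 2.53 ± 0.26. Of 9 beta and other gamma crystallins with a symbol, including the 4 members, 8 rose in MES and 8 in TMAT arrays. The exception was crygn1 at 0.36 ± 0.22 and 0.23 ± 0.22. opn6a encodes an opsin. opn6a had log2 intensities of 9.74, 8.58 and 9.25 in control arrays at 24 hpf and 12.03, 12.53 and 11.55 at 48 hpf. For opn6a, MES arrays gave 8.67, 8.66 and 9.05 and then 11.47, 11.41 and 11.83, and TMAT arrays 9.28, 8.98 and 8.66 and then 11.27, 11.51 and 11.30. The ages did not overlap in any agent, and control array 2 at 48 hpf was the highest. opn6a rose by 2.78 ± 0.20 in MES (adjusted p = 3.2e-06) and 2.39 ± 0.20 in TMAT arrays (adjusted p = 9.53e-06). rtbdn, a retinal protein that binds riboflavin in mammals, rose less, by 1.1 ± 0.31 in MES (adjusted p = 0.0156) and 1.51 ± 0.31 in TMAT arrays (adjusted p = 0.00424).

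Metabolic enzymes and lipid carriers were 7 members, and all rose in both exposures with median rises of 3.12 in MES and 3.06 in TMAT arrays, beside a control median of 2.62. tdh2 encodes a threonine dehydrogenase. tdh2 had log2 intensities of 9.98, 8.97 and 8.92 in control arrays at 24 hpf and 12.41, 11.96 and 12.48 at 48 hpf. For tdh2, MES arrays gave 9.16, 8.50 and 9.07 and then 12.75, 12.46 and 12.84, and TMAT arrays 8.50, 8.95 and 8.99 and then 12.35, 12.58 and 12.29. The 48 hpf exposed arrays lay within or above the control range, and all the 24 hpf ones were below control array 1. tdh2 rose by 3.78 ± 0.21 in MES (adjusted p = 5.08e-07) and 3.60 ± 0.21 in TMAT arrays (adjusted p = 7.79e-07). That corresponds to 13.7-fold and 12.1-fold, beside 7.95-fold in controls. apoda.1 encodes an apolipoprotein D, a carrier of small lipids. apoda.1 had log2 intensities of 11.39, 10.40 and 9.90 in control arrays at 24 hpf and 13.20, 13.75 and 13.76 at 48 hpf. For apoda.1, MES arrays gave 9.74, 9.93 and 10.09 and then 13.13, 13.02 and 13.23, and TMAT arrays 9.12, 10.43 and 9.50 and then 12.82, 13.14 and 13.59. Control array 1 was the highest at 24 hpf, and ages were apart in each agent. apoda.1 rose by 3.21 ± 0.30 in MES (adjusted p = 1.95e-05) and 3.50 ± 0.30 in TMAT arrays (adjusted p = 1.08e-05). hpdb, an enzyme of tyrosine breakdown, rose by 3.22 ± 0.26 and 3.06 ± 0.26. For hpdb and cyp4v2a, a fatty acid hydroxylase, 3 of the 6 exposed 24 hpf arrays read below 7.40, so the size of their rises is uncertain. Such a reading was also found in 3 of 6 for bhlhe23, 2 of 6 for ptprdb and 1 of 6 each for cldn7a and erc1a. The 7.40 is the highest random-probe value of any array, from control array 2 at 48 hpf, with an intensity of 169. In the exposed 24 hpf arrays random probes gave 86.1 to 93.8, so such a reading need not lie below its own array's background. gmpr, which recycles guanine nucleotides, rose by 2.85 ± 0.24 and 2.76 ± 0.24, and cyp4v2a by 1.81 ± 0.29 and 2.14 ± 0.29. The rise of entpd3, an enzyme that splits extracellular nucleotides, was 2.27 ± 0.27 and 2.84 ± 0.27, and that of endou2, an endoribonuclease, 3.12 ± 0.28 and 3.14 ± 0.28.

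Epithelium, matrix and growth signals made up 11 members and were divided: 5 rose in both exposures and 6 in neither. Their rises ranged from −0.33 to 4.33 in MES and from −0.29 to 3.87 in TMAT arrays. fgfbp2b encodes a secreted protein that binds fibroblast growth factors. fgfbp2b had log2 intensities of 11.66, 11.24 and 11.12 in control arrays at 24 hpf and 15.16, 14.86 and 15.01 at 48 hpf. For fgfbp2b, MES arrays gave 10.56, 10.55 and 11.48 and then 15.32, 15.22 and 15.03, and TMAT arrays 11.30, 11.48 and 10.80 and then 14.91, 15.19 and 15.11. The 9 arrays at 48 hpf lay close together, and MES arrays 1 and 2 at 24 hpf were the lowest of all. fgfbp2b rose by 4.33 ± 0.26 in MES (adjusted p = 8.34e-07) and 3.87 ± 0.26 in TMAT arrays (adjusted p = 1.8e-06). Its rise in MES arrays was the largest of the 121 members there. cldn7a encodes a claudin, a seal of tight junctions between epithelial cells. cldn7a had log2 intensities of 8.55, 8.32 and 8.82 in control arrays at 24 hpf and 12.36, 12.51 and 11.96 at 48 hpf. For cldn7a, MES arrays gave 8.07, 7.93 and 8.45 and then 11.56, 11.25 and 11.93, and TMAT arrays 8.41, 7.37 and 8.15 and then 10.99, 11.58 and 11.71. No group of one age overlapped with the other age. cldn7a rose by 3.43 ± 0.30 in MES (adjusted p = 1.11e-05) and 3.45 ± 0.30 in TMAT arrays (adjusted p = 1.08e-05). fstl5, a follistatin-like gene, rose by 3.34 ± 0.24 and 3.43 ± 0.24, mxra8b, an adhesion protein gene, by 3.26 ± 0.23 and 3.26 ± 0.23, and the claudin gene cldn15lb by 1.93 ± 0.22 and 1.79 ± 0.22. Of 12 claudins with a symbol, 4 were higher and 2 lower in MES, and 5 higher and 2 lower in TMAT arrays. Of all features, 21.2% were higher and 20.5% lower in MES, and 11.3% higher and 13.2% lower in TMAT arrays. bmpr2a and bmpr2b encode type II receptors for bone morphogenetic proteins. bmpr2b had log2 intensities of 9.13, 11.17 and 11.28 in control arrays at 24 hpf and 13.85, 14.14 and 13.10 at 48 hpf. For bmpr2b, MES arrays gave 12.18, 12.01 and 10.79 and then 12.71, 12.61 and 13.28, and TMAT arrays 12.07, 10.33 and 12.15 and then 13.08, 13.38 and 12.39. Ages were apart in every agent, and control array 1 at 24 hpf was the lowest of all. bmpr2b had rises of 1.21 ± 0.50 in MES (adjusted p = 0.0714) and 1.43 ± 0.50 in TMAT arrays (adjusted p = 0.0563), and was not called. It passed in TMAT arrays with median centring (adjusted p = 0.0440). With quantile normalization it passed in MES (adjusted p = 0.0450) and TMAT arrays (adjusted p = 0.0375), as it did with array weights (adjusted p = 0.0200 and 0.0126). bmpr2a, at 0.59 ± 0.37 and 0.80 ± 0.37, was not called, but passed in both with array weights (adjusted p = 0.0411 and 0.0457).

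The 2 members sorted by hand under muscle were casq1a, for a calcium-binding protein of the sarcoplasmic reticulum, and dtnbb, for a beta dystrobrevin. Both were called in both exposures. Values from whole embryos do not show in which tissue either is expressed. casq1a rose by 1.36 ± 0.21 and 1.56 ± 0.21, and its relative casq1b by 1.21 ± 0.22 and 1.45 ± 0.22. In a fit that included the control arrays the calls of casq1a were lost (adjusted p = 0.129 and 0.126). dtnbb rose by 0.88 ± 0.29 (adjusted p = 0.0314) and 0.98 ± 0.29 (adjusted p = 0.0292). Of the 11 members with other roles 6 rose in both exposures. parp6a had the largest of these, at 2.15 ± 0.17 and 2.27 ± 0.17, and the RNA-binding protein gene rbpms2a followed with 1.56 ± 0.26 and 2.04 ± 0.26. Members with a symbol of the zgc series, which name no function, were 8, and all rose in both exposures. The largest, zgc:109965, had a control rise of 3.43 and rose by 3.96 ± 0.23 in MES and 3.91 ± 0.23 in TMAT arrays. For 20 members no current symbol was found. Of these 15 rose in MES and 14 in TMAT arrays, and NM_001080060 led with 3.58 ± 0.16 and 3.62 ± 0.16. Another, NM_001025451, had control values of 7.20, 12.60 and 12.11 at 24 hpf and 13.23, 13.11 and 13.11 at 48 hpf. Its place among the members thus rests on control array 1 at 24 hpf.

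Over all 121 members, the calls of 12 were lost in 1 or both exposures under at least 1 other way of fitting or with arrays left out, the deposited combined table aside. These were adcyap1r1a, birc7, cadm3, casq1a, dab1b, dtnbb, nol4lb, pcdh2ab12, rtbdn, zgc:110045, NM_001020516 and NM_001025451. In the fit with all 18 arrays 5 calls were lost in MES and 5 in TMAT arrays, and NM_001025451 reached the highest adjusted p of these 12 members, 0.447. Upward calls were also gained under at least 1 other setting. Among them were those of bmpr2b, bmpr2a, cacnb4b, napbb, ptprub, ptprdb, map3k12, sobpa and cyfip2. For cacnb4b and napbb in TMAT arrays, array weights gave adjusted p = 0.0321 and 0.0318.

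Lists of genes matched by symbol patterns describe wider classes. The lists were chosen with earlier results of these data known, and patterns sort a few genes wrongly (fgfbp2b, fstl5 and the bmpr2 genes into transcription factors, for example). They also contain genes that met the control threshold of 2, members or left out by symbol. These were 14 of 24 in the lens list and 14 of 63 for synapse and neurotransmission, with 5 and 7 of them members. Counts of these 2 lists are therefore not apart from the choice of the members. In the next 3 lists 11 of 94, 9 of 127 and 1 of 22 met it. In the lens list of 24 measured genes 23 were higher at 48 hpf in MES and 21 in TMAT arrays, with medians of 2.83 and 2.73 and none lower. Of 63 genes of synapse and neurotransmission, 38 were higher and 4 lower in MES, and 35 higher and 1 lower in TMAT arrays, with medians of 0.92 and 0.95. Of 94 genes of neuronal excitability and cytoskeleton, 45 were higher and 5 lower in MES, and 34 higher and 3 lower in TMAT arrays, with medians of 0.72 and 0.59. Of 127 genes of transcription and patterning, 24 were higher and 31 lower in MES, and 26 higher and 21 lower in TMAT arrays, with medians of −0.12 and −0.06. Of 22 cell cycle and replication genes, 5 were higher and 11 lower in MES, and 4 higher and 11 lower in TMAT arrays, with medians of −0.82 and −0.75. Over all 2659 features with a symbol, 530 were higher and 588 lower in MES, and 423 higher and 394 lower in TMAT arrays, with medians of −0.11 and −0.06.

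The call rate in exposed embryos went with the size of the control rise. Of members with a control rise of 2 to 2.5, 68.3% were called in MES and 68.3% in TMAT arrays (n = 60). Of those with 2.5 to 3 it was 80.0% and 82.5% (n = 40), and of those with 3 or more 95.2% and 95.2% (n = 21). Among RefSeq features just below the threshold, with a control rise of 1 to 2, 44.5% and 44.8% were called (n = 422), and of those with 0 to 1, 18.3% and 12%. Counting only features with a current symbol, the members closest inside it were agap2 (2.01), fam110b (2.02), cyp4v2a (2.02), cbln2b (2.03) and cacna2d2b (2.03). All 5 were called in both exposures. Closest outside it were fzd3b (2.00), plcg1 (1.99), prkacaa (1.99), rfx1a (1.98) and napgb (1.98). Their rises in exposed arrays were 0.33, −0.19, 0.14, 0.62 and 1.36 in MES and 0.61, 0.11, 0.27, 0.98 and 1.22 in TMAT arrays. Of these, napgb was called in both exposures (adjusted p = 0.000316 and 0.000737) and rfx1a in TMAT arrays (adjusted p = 0.0215). The others were called in neither. Leaving out each of the 6 control arrays in turn, 68 members met the threshold every time, of which 62 were called in MES and 63 in TMAT arrays. The other 53 fell below it at least once, and 31 and 31 of these were called. With a control threshold of 2.5 there were 61 members, with 52 and 53 called, and with 1.5 there were 270.

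**Figure D4:**
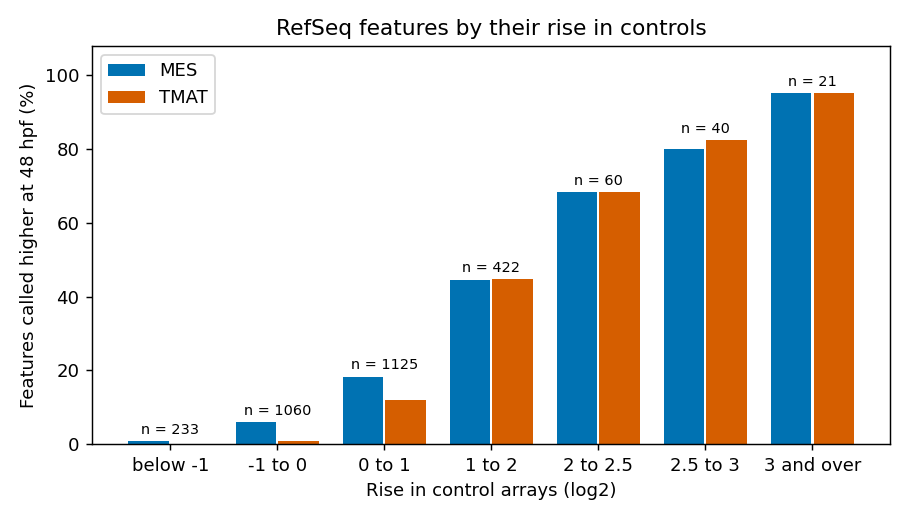
Percent of RefSeq features called higher at 48 hpf in MES (blue) and TMAT arrays (orange), by their rise in control arrays on the log2 scale (horizontal axis), without the symbols left out; n is the number of features in the bin. The members are the bins from 2 upward, and the bars go up from 18.3% and 12% for a control rise of 0 to 1 to 95.2% for 3 and over.

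The 26 members called in neither exposure shared a pattern across arrays. They included wwtr1, vangl2, ext1b, itgb1a, emilin1b, usp9, plxna3, slit1b, bcl9, bmpr2a, bmpr2b and ptprma. wwtr1 encodes TAZ, a co-activator of the Hippo pathway. wwtr1 had log2 intensities of 8.75, 9.43 and 9.45 in control arrays at 24 hpf and 11.34, 11.93 and 10.55 at 48 hpf. For wwtr1, MES arrays gave 11.41, 11.56 and 9.38 and then 9.87, 10.07 and 10.46, and TMAT arrays 11.51, 9.12 and 12.20 and then 10.73, 11 and 10.00. In the exposed groups MES array 3 and TMAT array 2 stood far below the other 24 hpf arrays, which were themselves above the 48 hpf arrays. wwtr1 had rises of −0.65 ± 0.73 in MES (adjusted p = 0.498) and −0.36 ± 0.73 in TMAT arrays (adjusted p = 0.758), and was not called. vangl2 encodes a core protein of planar cell polarity. vangl2 had log2 intensities of 9.41, 10.75 and 11.76 in control arrays at 24 hpf and 13.12, 13.94 and 12.17 at 48 hpf. For vangl2, MES arrays gave 13.63, 13.59 and 10.36 and then 12.34, 12.09 and 12.16, and TMAT arrays 13.27, 9.91 and 13.73 and then 11.99, 12.50 and 11.54. The same arrays were low, and the other exposed 24 hpf arrays were above all 48 hpf arrays of their agent. vangl2 had rises of −0.33 ± 0.97 in MES (adjusted p = 0.811) and −0.29 ± 0.97 in TMAT arrays (adjusted p = 0.861), and was not called. itgb1a encodes the beta 1 integrin, a receptor for matrix. itgb1a had log2 intensities of 9.28, 11.18 and 11.67 in control arrays at 24 hpf and 13.39, 13.73 and 12.80 at 48 hpf. For itgb1a, MES arrays gave 12.85, 12.94 and 10.39 and then 12.45, 12.48 and 11.88, and TMAT arrays 12.86, 10.15 and 12.98 and then 12.64, 12.54 and 12.03. Control array 1 was the lowest at 24 hpf, as it was for wwtr1 and vangl2. itgb1a had rises of 0.21 ± 0.76 in MES (adjusted p = 0.849) and 0.41 ± 0.76 in TMAT arrays (adjusted p = 0.741), and was not called. emilin1b encodes a glycoprotein of the extracellular matrix. emilin1b had log2 intensities of 8.77, 10.04 and 10.57 in control arrays at 24 hpf and 12.22, 11.83 and 11.58 at 48 hpf. For emilin1b, MES arrays gave 11.68, 11.84 and 8.13 and then 10.27, 10.74 and 11.08, and TMAT arrays 11.73, 8.01 and 11.80 and then 11.38, 11.40 and 10.75. Again MES array 3 and TMAT array 2 were the low ones at 24 hpf. emilin1b had rises of 0.15 ± 1.05 in MES (adjusted p = 0.925) and 0.66 ± 1.05 in TMAT arrays (adjusted p = 0.693), and was not called. usp9 encodes a deubiquitinating enzyme. usp9 had log2 intensities of 10.47, 11.59 and 12.17 in control arrays at 24 hpf and 13.87, 14.06 and 13.43 at 48 hpf. For usp9, MES arrays gave 14.02, 13.99 and 11.75 and then 13.25, 13.45 and 13.47, and TMAT arrays 14.06, 11.10 and 14.29 and then 13.54, 13.71 and 12.83. The pattern of low arrays was the same. usp9 had rises of 0.14 ± 0.77 in MES (adjusted p = 0.905) and 0.21 ± 0.77 in TMAT arrays (adjusted p = 0.876), and was not called.

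Across all 26, MES array 3 was the lowest of its 24 hpf group for 25, and TMAT array 2 for 26. Control array 1 was the lowest at 24 hpf for 23, and control array 2 the highest at 48 hpf for 21. Their median log2 intensity was 11.76, 11.67 and 9.73 in MES arrays 1, 2 and 3 at 24 hpf and 11.84, 9.61 and 12.14 in TMAT arrays. Among the 92 members called in both exposures, the lowest MES array at 24 hpf was array 1 for 11, array 2 for 43 and array 3 for 38. For these 92 the lowest TMAT array at 24 hpf was array 1 for 19, array 2 for 53 and array 3 for 20. Control array 1 was the lowest at 24 hpf for 43 of them, and control array 2 the highest at 48 hpf for 44. The same was not counted over all features. A wide spread makes a call less likely, so members without a call are in part chosen for such spread. Their median SD at 24 hpf was 0.93 in controls, 1.1 in MES and 1.23 in TMAT arrays. What set these arrays apart was not tested.

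MES array 3 and TMAT array 2 at 24 hpf were both left out in a further setting, added after their low values for these members had been seen. Leaving out the lowest arrays raises the 24 hpf means and narrows their spread by construction, so the values that follow describe the remaining arrays and are no test of a fall. The mean at 48 hpf minus that at 24 hpf was then −1.35 for wwtr1 and −1.41 for vangl2 in MES arrays, and −1.28 and −1.49 in TMAT arrays. It was −1.06 for emilin1b, −0.93 for ext1b and −0.63 for itgb1a in MES arrays, and −0.82 for usp9 in TMAT arrays. For bmpr2b it was 0.77 in MES and 0.84 in TMAT arrays. In this setting 96 of 121 members were past the threshold upward in MES and 95 in TMAT arrays, beside 93 and 94 with every exposed array. Of all 37105 features, 8724 were then past it upward in MES and 4739 in TMAT arrays, beside 7872 and 4208 with every exposed array. The calls of dab1b, dtnbb and birc7 in TMAT arrays were lost (adjusted p = 0.0608, 0.0817 and 0.0835). Without array 1 of the 24 hpf controls and array 2 of the 48 hpf controls, a choice also made after seeing the values, 91 features met the rule, 78 of them members, of which 70 were called in MES and 72 in TMAT arrays and 6 in neither.

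**Figure D5:**
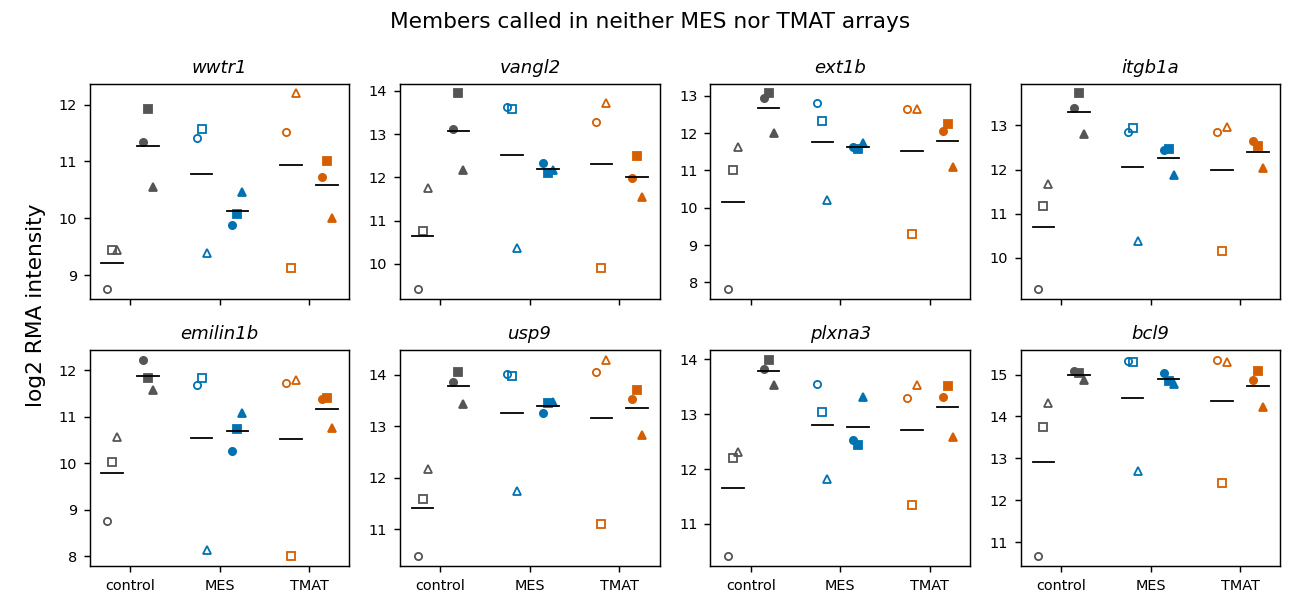
Log2 RMA intensity (vertical axis, its own range in each panel) in each of the 18 arrays of 8 members called in neither exposure. Open symbols are 24 hpf and filled symbols 48 hpf, circles, squares and triangles are arrays 1, 2 and 3, and bars are group means; MES array 3 (triangle) and TMAT array 2 (square) lie below the other 24 hpf arrays of their agent.

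No member was called different between the particles. The difference of the rises, TMAT minus MES, was called for 0 of 121 members and 0% of all 37105 features (limma, adjusted p under 0.05), while 1415 features, 3.81%, and 1 member had an unadjusted p under 0.05. That member was tmem266, whose product in mammals has a voltage-sensing domain. tmem266 had log2 intensities of 9.38, 9.37 and 9.34 in control arrays at 24 hpf and 11.30, 12.06 and 10.87 at 48 hpf. For tmem266, MES arrays gave 9.48, 9.45 and 9.56 and then 10.23, 10.30 and 10.18, and TMAT arrays 9.49, 9.12 and 9.37 and then 10.57, 10.56 and 10.49. The 48 hpf TMAT arrays were all above the MES arrays, and the 24 hpf arrays of both overlapped. tmem266 rose by 0.74 ± 0.14 in MES (adjusted p = 0.00224) and 1.21 ± 0.14 in TMAT arrays (adjusted p = 0.000112). The difference of the rises was 0.47 ± 0.20 (95% interval 0.03 to 0.92, adjusted p = 1.00). At 48 hpf TMAT and MES arrays differed for 0 of 121 members and for 0% of all features, with 2115 features, 5.7%, and 1 member at an unadjusted p under 0.05. The member was zgc:165603, higher by 0.48 in TMAT arrays (adjusted p = 0.872). The difference of rises ranged from −0.55 to 0.76 over the members, with a median of 0.14, and 83 of 121, 68.6%, were positive. Over all features the median was 0.04 and 55.6% were positive. Its 95% interval reached 0.81 to either side for the median member, and the missing calls do not show that the particles acted alike.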

How the data were processed

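Gene expression was measured on 18 single-colour arrays of zebrafish embryo pools, 3 for each of 6 groups taken from the labels. The authors deposited 1 table of linear intensity values per array, made with RMA per the submitters' processing notes, and its version and settings are not given in the sources used here. A combined table of the same intensities was also deposited. Of its 18 columns 2 equalled the array of their own label and 16 that of another array, so it served only as an alternative, and the per-array labels were used.

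Intensities were converted to log2 without a pseudocount or a filter. A model with 1 mean per group was fitted to the 12 exposed arrays over 37105 features (limma 3.58.1, R 4.3.3, 8 residual and 3.62 prior degrees of freedom), with two-sided tests, Benjamini-Hochberg adjustment over all features and a threshold of 0.05. The fit was also run on simulated data, with every value drawn independently. Deviations shared by many features of an array were not simulated, so that run does not bear on them. Control arrays chose the members and stayed out of it. ± marks limma's standard error, with 3 arrays a group and the spread estimated over all 12 exposed arrays together. It is therefore the same for the MES and the TMAT rise of a gene. The median standard error of a rise was 0.24. Symbols came from a RefSeq gene table through the RefSeq identifier, which matched 2659 of 3051 features. No sequence was used here.

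The members, the lists and the tests were chosen with earlier results of these data known. The genes named were the 15 largest control rises, up to 4 more per list, the 5 features on each side of the threshold, members that did not pass (up to 10 for each exposure, smallest rise first) and, for each comparison of the particles, the 4 smallest p-values. The p-values measure the spread between these pools, which may be technical. Alternatives were median centring, quantile normalization, a filter on dim features, all 18 arrays, array weights, ordinary statistics, a replicate block, the combined table, other thresholds and leaving out arrays. Some results are not reported here.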

Additional observations from a re-analysis of the deposited data

How the results depend on the processing

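In MES arrays 4969 features were higher with all 18 arrays in the fit, and 4660 lower. Array weights gave 12051 lower. In TMAT arrays 2802 were lower with all 18 arrays, and array weights gave 7785 higher and 9314 lower. Leaving out 1 array gave 4935 to 8923 lower in MES and 2983 to 5095 in TMAT arrays. The deposited combined table, read by its own column labels, gave 0 in each direction, for members too. The array that a column equalled had the labelled age for 10 of its 18 columns and the labelled agent for 6. Columns labelled with 1 age thus held arrays of both ages. The cause of the 0 calls was not tested. Members higher numbered 88 to 98 in MES and 90 to 98 in TMAT arrays with 1 array left out. Of all 37105 features, 5532 to 8524 were then higher in MES and 3298 to 4327 in TMAT arrays. Members lower were 1 in MES and 2 in TMAT arrays with array weights, and 7 and 3 with both low 24 hpf arrays left out, which raises the 24 hpf means by construction. With both left out, 9627 of all features were lower in MES and 6515 in TMAT arrays. Array weights called 5 features higher in TMAT than in MES arrays at 48 hpf, none of them a member. The rule gave 270 members at a threshold of 1.5, 61 at 2.5 and 97 to 176 with 1 control array left out. With a replicate block 92 members were higher in MES and 93 in TMAT arrays, beside 7164 and 3753 of all features. Deviations of same-numbered arrays from their group means correlated from −0.73 to 0.61. Arrays of different numbers were not compared, so this does not settle whether the numbers pair the arrays.

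These values changed sign, with none of those from array weights or quantile normalization past the threshold. With quantile normalization plxna3 was 0.043 in MES arrays and NM_001082992 −0.011 in TMAT arrays. With array weights the MES values were −0.023 for bcl9, −0.51 for NM_001077286, −0.24 for NM_001077798, −0.25 for NM_001082992, −0.22 for itgb1a, −0.98 for emilin1b and −0.48 for usp9. TMAT values were then −0.64 for NM_001077286, −0.33 for NM_001077798, −0.74 for NM_001082992, −0.37 for bcl9, −0.59 for ext1b, −0.11 for ptprma, −0.39 for itgb1a, −0.40 for emilin1b, −0.67 for usp9, −0.10 for ubap2a and −0.15 for plxna3. With both low 24 hpf arrays left out the MES values were −0.77 for NM_001077286, −0.54 for NM_001077798, −0.56 for NM_001082992, −0.42 for bcl9, −0.061 for ptprma, −0.63 for itgb1a, −1.06 for emilin1b and −0.62 for usp9. TMAT values were then −0.77 for NM_001077286, −0.47 for NM_001077798, −0.77 for NM_001082992, −0.60 for bcl9, −0.87 for ext1b, −0.18 for ptprma, −0.51 for itgb1a, −0.59 for emilin1b, −0.82 for usp9, −0.22 for ubap2a and −0.27 for plxna3. Leaving out 1 array at a time, MES values ranged from −0.27 to 0.16 for NM_001004514, −0.77 to 0.62 for NM_001077286, −0.54 to 0.89 for NM_001077798, −0.56 to 0.67 for NM_001082992, −0.42 to 0.89 for bcl9, −0.93 to 0.37 for ext1b, −0.061 to 1.16 for ptprma, −0.63 to 0.65 for itgb1a, −1.06 to 0.79 for emilin1b, −0.62 to 0.52 for usp9, −0.54 to 0.33 for plxna3 and −1.41 to 0.22 for vangl2. TMAT values ranged from −0.77 to 1.02 for NM_001077286, −0.47 to 0.92 for NM_001077798, −0.77 to 0.66 for NM_001082992, −0.60 to 0.86 for bcl9, −0.87 to 0.82 for ext1b, −0.18 to 0.98 for ptprma, −0.51 to 0.90 for itgb1a, −1.28 to 0.26 for wwtr1, −0.59 to 1.30 for emilin1b, −0.82 to 0.78 for usp9, −0.22 to 0.69 for ubap2a, −0.27 to 0.82 for plxna3 and −1.49 to 0.42 for vangl2. The 242 tested rises, those of all 121 members in both exposures, were each fitted under several settings, the deposited combined table aside. With 1 array left out, 2807 values kept their direction and their side of the threshold. Of the rest, 35 changed sign, 45 lost a call and 17 gained one. In the other settings 1829 values kept both, 39 changed sign, 26 lost a call and 38 gained one.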
